A study of Homo sapiens with 16 samples.

Results

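Chromosome 1 from 120 Mb to its end holds the last stretch of the short arm, the centromere and the whole long arm. Its TOP2B intervals were taken from 4 peak lists by position alone: an interval belonged here if it lay on chromosome 1 of GRCh37 with its midpoint at or above 120 Mb. The rule found 1638 of the 44922 intervals in the 4 lists. Wild type without drug gave 647 of 15281, the knockout without drug 384 of 12493, wild type under osimertinib 397 of 9655, and the knockout under osimertinib 210 of 7493. Wherever 4 values are given below, they follow that order of lists.

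The lists came from CUT&RUN in PC9, an established human lung adenocarcinoma line with an activating EGFR mutation, either wild type or knocked out for METTL7A, a methyltransferase-like gene. CUT&RUN tethers a nuclease to an antibody, so that DNA beside the bound protein is cut out and sequenced. Treated cells had spent 6 to 8 weeks under osimertinib, an inhibitor of mutant EGFR, with the dose raised from 100 nM. The pair of TOP2B libraries of each condition had been reduced to 1 list, so the spread between replicates is unknown and no comparison below has a test. Whether the knockout is 1 clone, and whether replicates were separate cultures, is not stated in the labels.

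TOP2B is the beta isoform of DNA topoisomerase II, an enzyme that passes one DNA duplex through a break in another to relieve twisting and entanglement. It is present in dividing and resting cells and is known for acting near active promoters and at the anchors of chromatin loops. Chromosome 1 carries a large block of constitutive heterochromatin beside its centromere, on the long-arm side, which GRCh37 leaves as a gap. Duplicated sequence lies beyond it, where short reads are hard to place. Gain of the long arm is a frequent change in lung adenocarcinoma. A genome or gene annotation of GRCh37 was not used here, so positions are given without genes or sequences.

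The intervals were concentrated in a few separate stretches. Of 130 windows of 1 Mb, 79 held an interval in at least 1 list, 28 in every list and 51 in none. No list had an interval midpoint from 122 to 142 Mb, which covers the heterochromatin gap, or from 182 to 199 Mb on the long arm. An empty window means that no peak passed into a list there, and does not measure an absence of TOP2B.

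Between 200 and 210 Mb lay 242, 134, 19 and 64 intervals, which made up 37.4%, 34.9%, 4.79% and 30.5% of the region in each list. Treated wild type stood apart there. Between 225 and 229 Mb lay 119, 66, 77 and 41 intervals, or 18.4%, 17.2%, 19.4% and 19.5%, which is nearly the same share in all 4 lists. Between 233 and 237 Mb lay 40, 26, 162 and 12 intervals, or 6.18%, 6.77%, 40.8% and 5.71%. This was the largest group of treated wild type and a minor one elsewhere. The 3 stretches are among the runs of adjacent 1 Mb windows of the same class by the ratio of treated to untreated wild type. The classes are at least 2-fold lower (200 to 210 Mb), at least 2-fold higher (233 to 237 Mb) and neither (225 to 229 Mb). Only windows where one of these lists has at least 5 intervals were classed. That rule was chosen after the counts had been seen, so the wild-type ratios over such runs are descriptions.

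**Figure D1:**
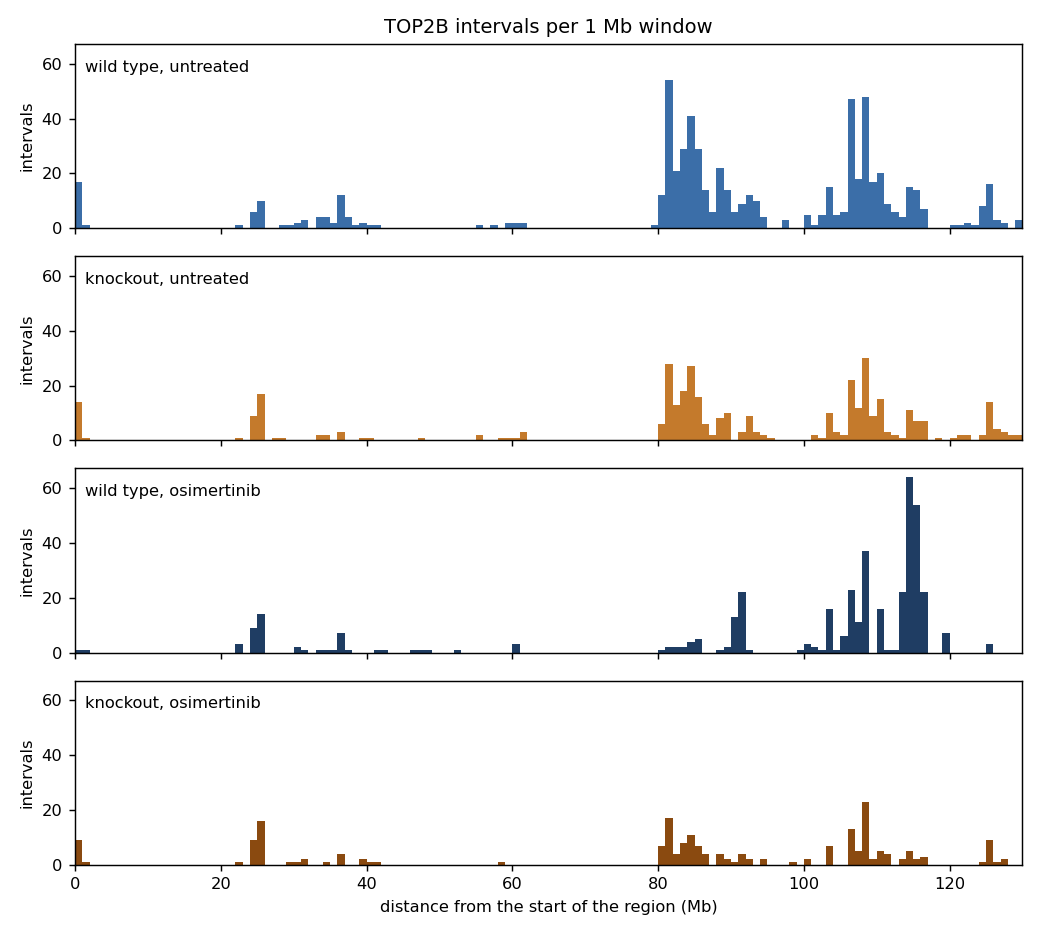
Number of TOP2B intervals (y axis) in each 1 Mb window, by distance from 120 Mb of chromosome 1 (x axis, Mb), with 1 panel per list. The window that starts 81 Mb along holds 54, 28, 2 and 17 intervals from the top panel down, and the window that starts 114 Mb along holds 15, 11, 64 and 5.

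The region took 4.23% of the untreated wild-type list (95% interval 3.92 to 4.57), 3.07% of the untreated knockout list (2.78 to 3.39), 4.11% of the treated wild-type list (3.72 to 4.53) and, in the treated knockout, 2.80% (2.44 to 3.20). Intervals on shares are exact Clopper-Pearson intervals, and those on ratios of shares are exact conditional intervals. They cover counting error only, and neighbouring peaks are not independent of each other. As a part of chromosome 1 the region ranged more widely, from 26.4% of the 795 intervals on that chromosome in the treated knockout to 86.1% of 461 in treated wild type. The adjoining stretch of the short arm, from 110 to 120 Mb, held 466, 536, 17 and 516 intervals.

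Median width was 2450, 1600, 1200 and 1150 bp, close to the 2600, 1650, 1200 and 1150 bp of the whole lists. The summed length was 1725, 666, 517 and 250.4 kb. Some intervals were pieces of a larger called peak that had been split, recognised by a shared area, maximum and position of the maximum. Such pieces made up 41.6%, 0.521%, 56.2% and 24.8% of the region's intervals, against 49.96%, 3.34%, 49.89% and 33.66% of the whole lists. Counting each called peak once gave 494, 383, 245 and 180 peaks. Ratios are given by intervals, whose counts depend on splitting. Because the lists differ so much in splitting, the called-peak ratio is added for the main windows.

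**Figure D2:**
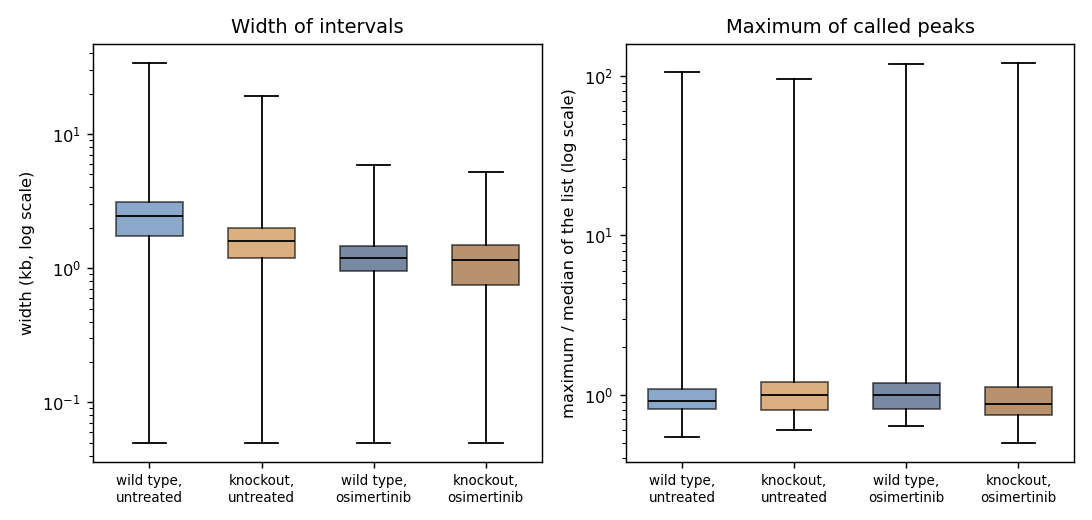
Width of the region's intervals in kb (left, log axis) and maximum of its called peaks divided by the median of the same list (right, log axis), for the 4 lists; boxes span the quartiles, the line is the median and whiskers reach the lowest and highest value. Median widths are 2450, 1600, 1200 and 1150 bp from left to right, and the highest maxima stand at 95.8 to 121 times the list median.

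The highest signal came from a pair of narrow places present in every list. The maximum of a called peak is the authors' own value, on a scale that is not given, and was divided by the median called peak of its list. The first place lay at 121484051 to 121485500, at the short-arm edge of the gap, and stood at 107, 95.8, 119 and 121 times the median. It ranked 3, 3, 4 and 3 among all called peaks of the lists. The second, on the long arm at 156186001 to 156186900, stood at 10.5, 7.4, 6.27 and 7.88 times the median. Its maximum fell in the same 50 bp, 156186401 to 156186450, in all 4 lists. Every other called peak of the region was at or under 2.64 times the median of its list. Neither place differed between conditions by as much as 2-fold. No control signal was compared at either place, and whether their height reflects bound TOP2B was not tested.

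Beyond the gap, a block at 144000001 to 146000000 held 16, 26, 23 and 25 intervals, or 2.47%, 6.77%, 5.79% and 11.9% of the region. It contained the widest interval of 3 of the lists, 33800 bp at 145014701 to 145048500 in untreated wild type, 19300 bp at 144987701 to 145007000 in the untreated knockout and 5250 bp at 144991401 to 144996650 in the treated knockout. The widest of treated wild type lay elsewhere, 5900 bp at 235054001 to 235059900. Called peaks numbered 9, 25, 8 and 12 in the block, so its interval counts depended on splitting.

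Knockout and wild-type cells without drug were compared through a single list each, and whether a difference comes from loss of METTL7A was not tested. The region's share was lower in the knockout, with a ratio of 0.726 (95% interval 0.638 to 0.825) by intervals and 0.662 (0.578 to 0.758) by called peaks. Among intervals whose called peak reached the median maximum of its list the ratio was 0.999. At 200 to 205 Mb there were 157 wild-type and 92 knockout intervals (0.717, 0.548 to 0.933). At 205 to 210 Mb there were 85 and 42 (0.604, 0.407 to 0.885), and at 225 to 230 Mb 136 and 75 (0.675, 0.502 to 0.901). Called peaks gave 0.701, 0.578 and 0.653 in these windows. At 155 to 160 Mb there were 21 and 4 intervals (0.233, 0.0581 to 0.691), and 0.190 (0.0467 to 0.576) by called peaks. From 230 Mb to the end the result depended on the unit, with 0.863 (0.639 to 1.161) by intervals and 0.703 (0.515 to 0.956) by called peaks.

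Windows of 1 Mb were compared where one list or the other had at least 10 intervals. Of 23 such windows, 1 passed 2-fold upward and 3 downward, 17.4% in all. Over all chromosomes 21.9% of windows passed, 3.61% upward and 18.3% downward, so the region was near the background. The higher window was 145000001 to 146000000, with 10 wild-type and 17 knockout intervals (2.08, 0.899 to 5.08). The lower ones were 156 to 157 Mb with 12 and 3 (0.306, 0.0554 to 1.13), 213 to 214 Mb with 10 and 3 (0.367, 0.0649 to 1.43) and 208 to 209 Mb with 22 and 8 (0.445, 0.171 to 1.04). Each of these 95% intervals included 1. By called peaks the ratio was 0.256 (0.0453 to 0.995) at 156 to 157 Mb and 2.73 (0.956 to 9.54) in the higher window. With windows of at least 5 intervals, 13 of 35 (37.1%) passed, against 29.7% over all chromosomes.

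Exact positions were shared less often than elsewhere. Of the region's knockout intervals, 61.2% (56.1 to 66.1) overlapped no wild-type interval by even 1 bp, against 46.3% over all chromosomes and 45.9% outside the region. Of its wild-type intervals, 79.4% (76.1 to 82.5) overlapped none of the knockout, against 64.9% over all chromosomes and 64.2% outside the region. Wild-type intervals with a counterpart had a median width of 3100 bp, and those without 2350 bp. Sharing was more frequent on the long-arm side of the gap, where 2 of 10 knockout intervals at 140000001 to 145000000 and 1 of 19 at 145000001 to 150000000 lacked a wild-type counterpart. On its short-arm side, at 120 to 125 Mb, 8 of 15 lacked one, compared with 55 of 92 at 200 to 205 Mb and 24 of 32 at 230 to 235 Mb. Median width of the wild-type intervals was 3600 bp at 140000001 to 145000000 and 3825 bp at 145000001 to 150000000, against 2450 bp over the region. Whether the greater width raised the sharing there was not tested.

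Under osimertinib, wild-type cells had nearly the same total share of the list in the region, distributed differently along it. The ratio of treated to untreated shares was 0.971 (0.855 to 1.10) over the region. It moved to either side of 1 with the unit: 0.786 (0.672 to 0.918) by called peaks, 1.21 by summed length and 1.85 among intervals whose called peak reached the list median. At 200 to 205 Mb the list went from 157 intervals to 11 (0.111, 0.0542 to 0.204), and at 205 to 210 Mb from 85 to 8 (0.149, 0.0623 to 0.307). At 230 to 235 Mb it went from 54 to 104 (3.05, 2.17 to 4.32), and at 235 to 240 Mb from 21 to 83 (6.26, 3.84 to 10.6). At 225 to 230 Mb the share did not differ beyond counting error, with 136 and 77 intervals (0.896, 0.669 to 1.19).

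The stretches alternated at short distances along the arm. At 210 to 212 Mb there were 15 untreated and 35 treated intervals, and at 212 to 214 Mb 22 and 1. At 228 to 229 Mb there were 48 and 37, and in the next window 17 and 0. At 231 to 233 Mb there were 15 and 2, and at 233 to 237 Mb 40 and 162. Called peaks at 233 to 237 Mb numbered 35 and 78, a ratio of 3.53 (2.34 to 5.43), against 6.41 (4.51 to 9.30) by intervals. From 240 to 245 Mb the list went from 13 intervals to 0 (upper bound of the ratio 0.519), and from 245 Mb to the end from 24 to 3 (0.198, 0.0381 to 0.651). The short-arm side of the gap showed 17 and 1 at 120 to 121 Mb.

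Counted as called peaks, the 4 windows at 200 to 210 and 230 to 240 Mb kept their direction at smaller sizes. At 200 to 205 Mb peaks numbered 112 and 11 (0.156, 0.0756 to 0.289), and at 205 to 210 Mb 62 and 7 (0.179, 0.0691 to 0.391). At 230 to 235 Mb they numbered 46 and 52 (1.79, 1.18 to 2.73), which is under 2-fold, and at 235 to 240 Mb 19 and 41 (3.42, 1.94 to 6.24). At 145000001 to 150000000 the direction turned with the unit, from 1.85 (0.793 to 4.37) by intervals, 12 and 14, to 0.679 (0.113 to 2.98) by peaks, 7 and 3. Split pieces were 74 of the 104 treated intervals at 230 to 235 Mb, against 14 of 54 untreated. At 235 to 240 Mb they were 61 of 83, against 4 of 21. Over the whole lists, split pieces made up 49.89% of treated and 49.96% of untreated wild-type intervals. Both windows thus lay above that share in the treated list and below it in the untreated list. Treated called peaks in these windows were also larger than usual for their list. The median area of called peaks was 1.44 and 1.66 times the list median in treated wild type, and 0.746 and 0.870 times in untreated wild type.

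**Figure D3:**
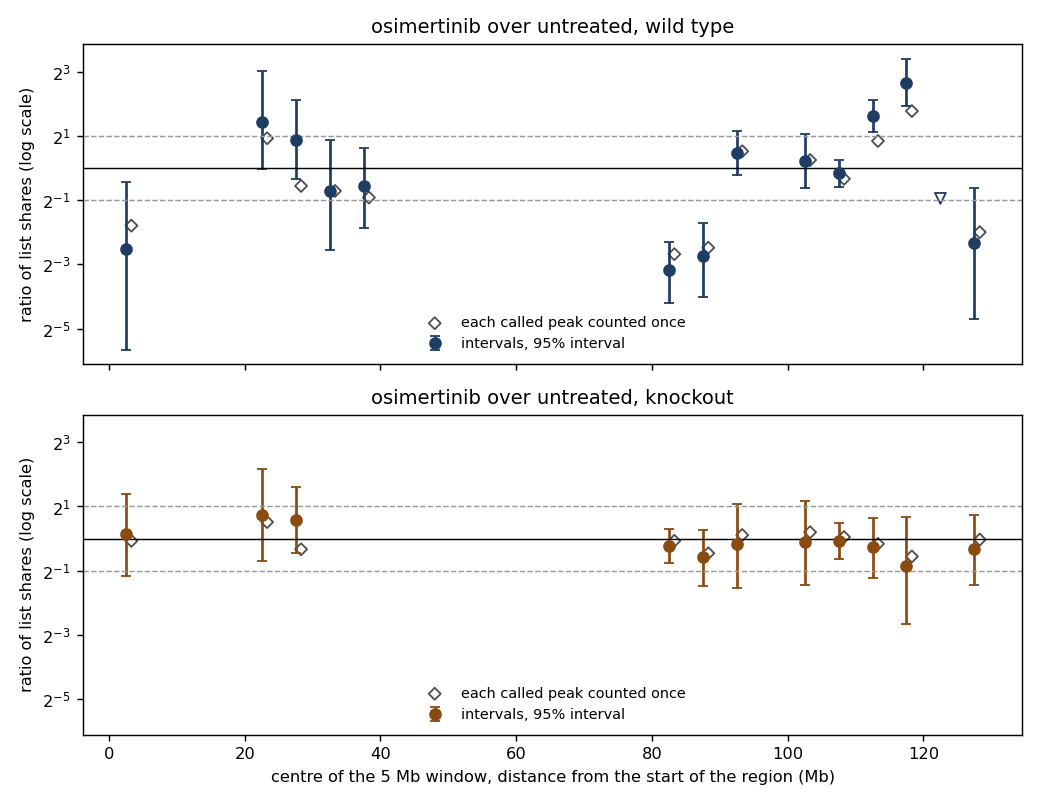
Ratio of list shares, osimertinib over untreated (y axis, log scale), in 5 Mb windows where one of the lists has at least 10 intervals, by distance from 120 Mb (x axis, Mb), for wild type (top) and knockout (bottom). Filled points are intervals with exact 95% intervals, open diamonds count each called peak once, and the open triangle is an upper bound where the treated count is 0; points of wild type range from 0.111 to 6.26 and those of the knockout from 0.556 to 1.67.

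Of 27 windows of 1 Mb in wild type, 7 passed 2-fold upward under the drug and 14 downward, 77.8% in all. Over all chromosomes 69.0% passed, 33.0% upward and 36.0% downward, so windows past 2-fold were about as frequent elsewhere. The highest ratios were in 3 adjacent windows. They were 233 to 234 Mb with 4 untreated and 22 treated intervals (8.70, 2.96 to 34.7), 234 to 235 Mb with 15 and 64 (6.75, 3.81 to 12.8) and 235 to 236 Mb with 14 and 54 (6.10, 3.34 to 11.9). By called peaks the 3 ratios were smaller, 6.34 (2.05 to 26.1), 3.30 (1.60 to 7.21) and 2.68 (1.29 to 5.80). The lowest were 229 to 230 Mb with 17 and 0 (upper bound 0.384), 206 to 207 Mb with 14 and 0 (upper bound 0.477) and 201 to 202 Mb with 54 and 2 (0.0586, 0.00692 to 0.222).

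Where both wild-type lists had an interval, peak height went the same way as the counts at 200 to 205 and 230 to 240 Mb. The maximum is that of the whole called peak. It lay outside the interval itself for 54.7% of untreated and 68.0% of treated wild-type intervals of the region. The change therefore compares called peaks and does not measure height at the shared position. The change of the relative maximum is given as log2 of treated over untreated, and its median over all 2770 overlapping treated intervals of the genome was -0.15. Of these intervals, 892 were above 0 and 1626 below. Maxima come in whole steps of 0.0909 times the median in both wild-type lists, so small changes are not resolved. At 230 to 235 Mb the median change was 0.68, with 14 of 14 intervals above 0, from 7 called peaks. At 235 to 240 Mb it was 0.58, with 12 of 12 above 0, from 9 called peaks. At 225 to 230 Mb it was 0.00 over 36 intervals, 12 above 0 and 17 below. At 200 to 205 Mb it was -0.46, and all 5 overlapping intervals were below 0.

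**Figure D4:**
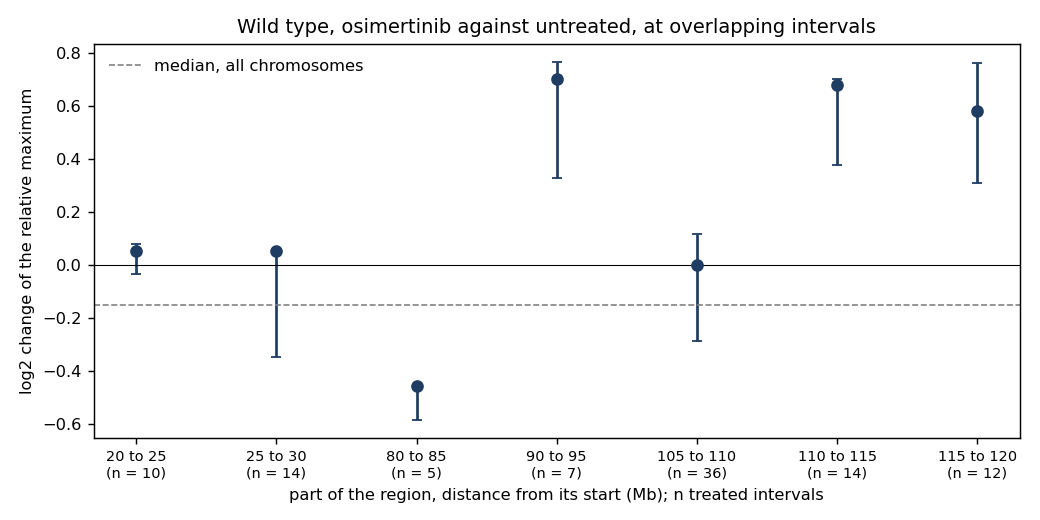
Change of the relative maximum between treated and untreated wild type at overlapping intervals (y axis, log2) in 5 Mb windows with at least 5 such intervals, by distance from 120 Mb (x axis, Mb); points are medians, bars the interquartile range and the dashed line the median over all chromosomes (-0.15). The windows 90 to 95, 110 to 115 and 115 to 120 Mb along stand at 0.70, 0.68 and 0.58, and the window 80 to 85 Mb along at -0.46.

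Of the region's untreated wild-type intervals, 86.9% (84.0 to 89.4) had no treated counterpart, against 85.2% over all chromosomes. Of the treated ones, 73.0% (68.4 to 77.4) had no untreated counterpart, against 71.3%. Both were near the background. Most treated intervals in the dense stretch covered positions with no untreated interval, 90 of 104 at 230 to 235 Mb and 71 of 83 at 235 to 240 Mb. Treated intervals outnumbered untreated ones there, and most were split pieces. Whether either bears on the missing counterparts was not tested. In the reverse direction, 44 of 54 and 10 of 21 untreated intervals had no treated counterpart. Beside the gap, at 145000001 to 150000000, all 14 treated intervals had an untreated counterpart, but 13 of them were split pieces. In the reverse direction, 7 of 12 untreated intervals there had no treated counterpart.

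In the knockout, no 5 Mb window with at least 10 intervals differed beyond counting error under osimertinib. The ratio over the region was 0.912 (0.767 to 1.08), and 0.959 (0.798 to 1.15) by called peaks. At 200 to 210 Mb there were 134 untreated and 64 treated intervals (0.796, 0.582 to 1.08), at 225 to 229 Mb 66 and 41 (1.04, 0.684 to 1.55), and at 233 to 237 Mb 26 and 12 (0.770, 0.354 to 1.58). The edges of these runs were set by the wild-type lists alone. Their rule was chosen after the counts had been seen, so the knockout ratios over them are descriptions too. The 95% intervals leave room for changes of moderate size, and a difference between genotypes in the response to the drug was not tested.

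Of 15 windows of 1 Mb in the knockout, 0 passed 2-fold upward and 1 downward, which is 6.67%. Over all chromosomes 18.1% passed, 2.90% upward and 15.2% downward. The window was 209 to 210 Mb, with 10 untreated and 2 treated intervals (0.333, 0.0355 to 1.56). The highest ratio was 1.57 (0.742 to 3.30) at 145000001 to 146000000, with 17 and 16, where called peaks gave 0.765 (0.245 to 2.06). Of the treated intervals 66.7% (59.9 to 73.0) had no untreated counterpart, against 56.3% over all chromosomes. Of the untreated ones 84.6% (80.6 to 88.1) had no treated counterpart, against 76.6%. At 230 to 235 Mb the median log2 change of the relative maximum was -0.35 over 6 intervals, all below 0, from 4 called peaks. At 120 to 125 Mb it was 0.32 over 5 intervals, all above 0, from 5 called peaks. Over the region it was -0.02 over 70 intervals, against -0.09 over all chromosomes. Of the 3272 overlapping treated intervals over all chromosomes, 1404 were above 0 and 1740 below. The steps of the maxima differ between the knockout lists, and are coarser in both than in the wild-type lists. Small changes are therefore not resolved here either.

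The treated lists of both genotypes were then compared with each other. This comparison shares the treated wild-type list with the one above and gives no separate evidence for the same stretches. At 200 to 205 Mb wild type had 11 intervals and the knockout 47 (5.51, 2.81 to 11.8), and called peaks gave 4.29 (2.18 to 9.23). At 235 to 240 Mb wild type had 83 and the knockout 5 (0.0776, 0.0246 to 0.189). Called peaks numbered 41 and 5 there, which gave 0.134 (0.0413 to 0.339). Over the region the ratio of knockout to wild type was 0.682 (0.574 to 0.808) by intervals, 0.807 (0.662 to 0.982) by called peaks and 0.441 among intervals whose called peak reached the list median.

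Of 14 windows of 1 Mb, 2 passed 2-fold upward in the treated knockout and 7 downward, 64.3% in all. Over all chromosomes 79.0% passed, 28.0% upward and 51.0% downward. The highest was 201 to 202 Mb with 2 wild-type and 17 knockout intervals (11.0, 2.60 to 97.7), followed by 204 to 205 Mb with 4 and 11 (3.54, 1.05 to 15.3). The lowest were 235 to 236 Mb with 54 and 2 (0.0477, 0.00564 to 0.181), 210 to 211 Mb with 13 and 1 (0.0991, 0.00233 to 0.660) and 234 to 235 Mb with 64 and 5 (0.101, 0.0316 to 0.247). By called peaks the ratio was 8.24 at 201 to 202 Mb, 3.02 (0.895 to 13.0) at 204 to 205 Mb and 0.0999 (0.0114 to 0.406) at 235 to 236 Mb. Of the knockout intervals 79.0% (72.9 to 84.3) had no wild-type counterpart, against 86.6% over all chromosomes. Of the wild-type intervals 89.2% (85.7 to 92.0) had none in the knockout, against 89.5%.

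Intervals of 1 list separated by at most 100 kb were joined into clusters, and clusters of at least 5 intervals were counted. There were 31, 23, 14 and 10 clusters, which held 74.3%, 63.8%, 79.3% and 41.4% of the region's intervals. Median cluster length was 217, 186, 330 and 122 kb. Joined at 50 kb instead, they numbered 32, 20, 22 and 8, so the order of the lists by number of clusters depended on that distance. The longest of treated wild type, 1286 kb at 234039801 to 235325300, held 26, 17, 95 and 6 intervals of the lists. The next, 820 kb at 235491851 to 236311750, held 6, 4, 45 and 3. The cluster with most intervals in untreated wild type, 200865501 to 201761300, held 60, 31, 3 and 22. In contrast, the cluster at 228109251 to 228690050 held 40, 23, 37 and 20.

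Merging overlapping intervals of the 4 lists gave 1232 places, of which 81.5% were in 1 list only, against 72.9% of 29197 places over all chromosomes. Untreated wild type alone covered 441 places (35.8%), against 27.1% over all chromosomes. The other lists alone were near the background. The untreated knockout covered 205 (16.6%, against 16.8%), treated wild type 266 (21.6%, against 21.4%) and the treated knockout 92 (7.47%, against 7.56%). Places of treated wild type alone numbered 86 of 172 at 230 to 235 Mb and 66 of 101 at 235 to 240 Mb, but 5 of 242 at 200 to 205 Mb. Its intervals in these windows numbered 104, 83 and 11. Places in every list except treated wild type numbered 16 (1.30%), against 5.26% over all chromosomes.

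**Figure D5:**
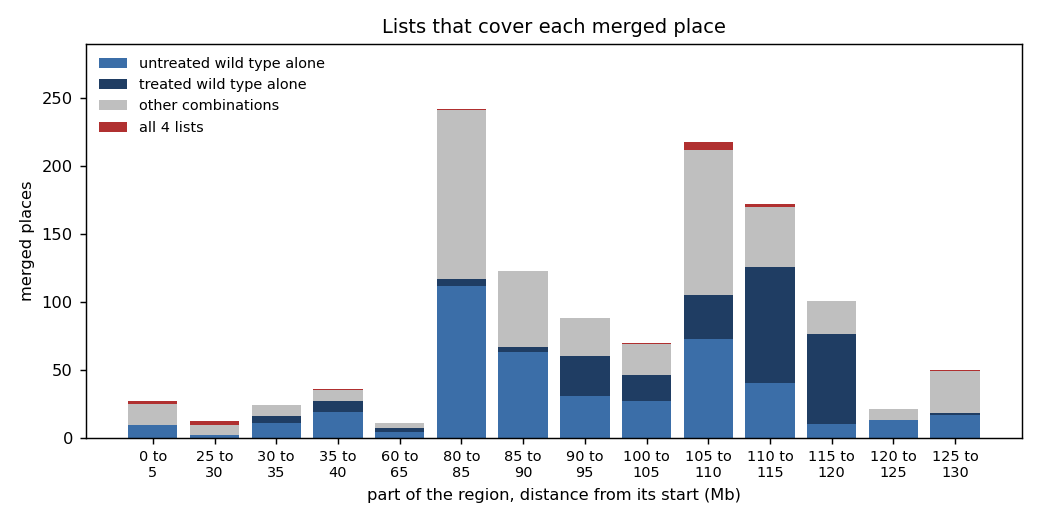
Number of merged places (y axis) in 5 Mb windows with at least 10 of them, by distance from 120 Mb (x axis, Mb), divided by the lists that cover them. Places covered by treated wild type alone number 5 and 4 in the windows 80 to 85 and 85 to 90 Mb along, and 86 and 66 in the windows 110 to 115 and 115 to 120 Mb along.

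Only 21 places (1.70%) were in all 4 lists, against 2.29% over all chromosomes. Beside the gap, 4 of them lay at 140000001 to 145000000 and 3 at 145000001 to 150000000, where there were 9 and 12 places in all. At 225 to 230 Mb they were 6 of 218. Ranked by the lowest of their 4 relative maxima, the first 8 were the pair of narrow places described above and 6 others between 142535401 and 145080800. Of these, 145011851 to 145048500 held intervals of called peaks at 2.55, 2.2, 2.64 and 2.38 times the list median. Such values belong to called peaks, whose maximum can lie outside the place. The neighbouring place 144986251 to 145010200 had the same 2.55, 2.64 and 2.38 in untreated wild type, treated wild type and the treated knockout. A treated wild-type maximum of 2.64 lay in that neighbour, at 144993251 to 144993300. The first place after the gap, 142535401 to 142539800, stood at 2.18, 2, 2.09 and 1.63 times. The next in rank were neighbours inside the longest treated wild-type cluster. The place at 234911851 to 234915750 stood at 1.73, 2.2, 2.09 and 1.25 times, and that at 234915851 to 234919300 at 1.73, 1.2, 2.09 and 1.13 times. Their equal values in the wild-type lists can be those of a called peak split between them.

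Peak lists do not separate the number of DNA copies from the TOP2B bound per copy, so these cannot be told apart for any stretch above.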

How the data were processed

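CUT&RUN for TOP2B and histone H2A covered 16 samples in 8 groups of 2. The 8 H2A samples were not analysed here. Per the submitters' processing notes, bedtools 2.30, deepTools 3.5.1, SAMtools 1.16, Bowtie2 2.4.2, SEACR, FastQC and Trimmomatic were used, with build GRCh37. How lists were intersected, the caller's mode and control, and the handling of duplicates were not given in the sources used here. No header came with the deposited lists, and columns were read from their values as a SEACR layout. The area is a deposited score and the maximum a deposited signal, each of the called peak. Library depth is unknown from such lists. The region, its parts and the comparisons were chosen with earlier results of these data known.

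Intervals were placed by midpoint, and shares divide by the list total. Windows of 1 Mb were compared with 0.5 added to each count, at a limit of 2-fold. Named windows were the 3 highest and 3 lowest ratios per comparison, of which the text gives those past 2-fold and some others. Named intervals were the highest and widest of a list, named clusters those with most intervals, and named places the first 10 present in all lists. Python 3.11.15, pandas 2.3.3 and scipy 1.17.1 were used, and the scripts were tested on simulated lists. Alternatives changed the unit counted, the lowest signal, the region's edge, the denominator, the window, the overlap and the joining distance.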

Additional observations from a re-analysis of the deposited data

Results flagged for a closer look

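In 3 windows of 5 Mb, the ratio of treated to untreated shares passed 2-fold in wild type and lay on the opposite side of 1 in the knockout. The difference between genotypes was not tested. At 120 to 125 Mb the ratio was 0.176 in wild type (18 and 2 intervals) and 1.11 in the knockout (15 and 10). By called peaks these were 0.288 (0.0310 to 1.32) and 0.952, so the opposite direction was not kept there. At 230 to 235 Mb the ratio was 3.05 in wild type and 0.834 in the knockout. By called peaks it was 1.79, under 2-fold, and 0.892. At 235 to 240 Mb it was 6.26 in wild type and 0.556 in the knockout, and 3.42 and 0.680 by called peaks. The 3 knockout ratios had 95% intervals that included 1.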

How the results depend on the processing

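Of 204 recomputed values, 149 stayed within the counting interval of the reported value, or within 1.5 times for a count, and 55 did not. Of those, 2 were single windows of wild type under the drug, 234 to 235 and 235 to 236 Mb, at 1.69 and 1.40 on the log2 scale by called peaks in place of 2.72 and 2.57. No paired analysis was possible because each condition has 1 list made from both replicates, and leaving out a replicate was not possible either. Windows with few intervals have wide 95% intervals. For the values below, the cause was not tested.

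With each called peak counted once, the region's share was 4.71% in untreated and 3.70% in treated wild type, the drug ratio in wild type 0.786 over the region and 1.59 from 230 Mb, and the ratio of treated knockout to treated wild type from 230 Mb 0.366. By summed length, the share of untreated wild type was 3.55%, and the drug ratio in wild type 1.21 over the region and 3.52 from 230 Mb. Among intervals at or above the median maximum, the shares were 2.76%, 2.76%, 5.10% and 2.25% in the order of the lists. The ratios were then 0.999 for knockout over wild type untreated, 1.85 for the drug in wild type and 0.441 for treated knockout over treated wild type.

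Without division by the list total, the region's ratios were 0.594 and 0.529 for knockout over wild type, untreated and treated, and 0.614 and 0.547 for the drug in wild type and knockout. The drug ratios in wild type and knockout were then 0.194 and 0.483 at 200000001 to 215000000, 0.594 and 0.576 at 215000001 to 230000000, and 1.70 and 0.430 from 230 Mb. Windows past 2-fold in the knockout under the drug numbered 8 of 15 in place of 1.

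In 5 Mb windows, those past 2-fold numbered 2 of 14 for untreated knockout over wild type (14.3%, against 23.6% over all chromosomes), 8 of 14 for the drug in wild type (57.1%, against 65.1%) and 0 of 11 for the drug in the knockout (against 23.3%). With at least 5 intervals in 1 Mb windows they numbered 13 of 35 for untreated knockout over wild type (37.1%, against 29.7%), 15 of 23 for treated (65.2%, against 79.2%) and 3 of 23 for the drug in the knockout (13.0%, against 26.9%).

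With 50% of both intervals required, the percentages without a counterpart were 87.2 and 92.4 (untreated knockout in wild type, and the reverse), 95.7 and 97.4 (treated wild type in untreated, and the reverse), 91.0 and 95.1 (treated knockout in untreated, and the reverse), and 89.0 and 94.2 (treated knockout in treated wild type, and the reverse). Within 1 kb they were 53.6 and 74.7, 65.2 and 82.4, 80.2 for the untreated knockout in the treated, and 72.9 and 84.6. At or above the median maximum they were 55.5 and 65.3 for the untreated lists, 51.9 for the treated knockout in untreated and 71.3 for it in treated wild type. Joining at 50 kb gave 22 clusters in treated wild type, and its median relative maximum over intervals was 1.09.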
